A study of Sus scrofa with 6 samples.

Results

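miR-128 (listed as ssc-miR-128) was followed as 1 mature microRNA (miRNA, a short RNA that guides repression of messenger RNAs) out of 326 listed pig miRNAs, taken by its name in each table of small RNA sequencing. It was chosen by measured values, namely its level, its rank, its share of the listed miRNA reads and its values in the pair of follicle groups, so these are given as a description and without a test. The libraries came from denuded oocytes, that is, oocytes stripped of their cumulus cells, of prepubertal gilts whose ovaries were collected at an abattoir. The group LO held oocytes of large follicles, 3 to 6 mm across, drawn through a 20-gauge needle into a 10 mL syringe. The group SO held oocytes of small follicles, less than 2 mm across, drawn through a 23-gauge needle into a 5 mL syringe. Each group had 3 libraries, biological replicates by the series design, and the question named in the series title is how the miRNA profile relates to developmental competence. Follicle size, needle and syringe changed together, so they cannot be told apart. The sources used here do not give the number of oocytes or animals behind a library.

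miR-128 is a conserved miRNA best known from the brain, where it is abundant in neurons and holds down excitability. Outside the brain it has been studied as a repressor of the Polycomb gene BMI1 and of the cholesterol exporter ABCA1. A miRNA finds its targets mainly through its seed, bases 2 to 8 from the 5′ end, which pairs with a complementary stretch of the messenger RNA. The pig carries 2 miR-128 hairpin genes, MIR128-1 and MIR128-2. In the RefSeq annotation of Sscrofa11.1 the first lies inside the span of the protein-coding gene R3HDM1 and the second inside that of ARPP21. The table lists a single mature miR-128, so the reads of the hairpins are not separated. No other arm of either hairpin was analysed here.

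The mature sequence is shown first, beside the 3 other listed miRNAs that share at least 6 bases in a row of its seed near their own 5′ end. Sequences are as deposited, in DNA letters from 5′ to 3′, and capitals mark the bases shared with the seed of miR-128.
miR-128: tCACAGTGaaccggtctcttt
miR-27a: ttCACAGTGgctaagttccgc
miR-27b-3p: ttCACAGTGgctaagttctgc
miR-139-5p: tctACAGTGcacgtgtctccag
In miR-128 the shared run fills bases 2 to 8, in both miR-27 miRNAs the same 7 bases lie at positions 3 to 9, and in miR-139-5p only 6 of them are present, at positions 4 to 9. No other listed miRNA had the seed of miR-128, and 221 of the 326 names (67.8%, miR-128 included) had a seed of their own. The reverse complement of the miR-128 seed is CACTGTG and that of the miR-27b-3p seed is ACTGTGA, so the 8 bases CACTGTGA hold both. Over the first 20 bases, compared position by position, the nearest other name differed from miR-128 at 9 positions. No shifts or gaps were allowed, so a shifted copy would not be seen this way. Its length of 21 bases and GC content of 47.6% lay beside medians of 22 bases and 47.6% over all listed names.

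The tables give reads per 1000000 (RPM), scaled by the authors to a library total. The values step in whole reads, which gave library totals of 461505 to 1424130 reads in LO and 1915218 to 2187987 in SO, and 7755 to 42541 listed miRNA reads in LO against 44964 to 55230 in SO. All LO libraries were therefore shallower than any SO library. Of miRNAs marking other cell types, the 8 granulosa and cumulus names took 1.93% to 3.82% of listed reads in LO and 1.68% to 2.55% in SO, highest in LO replicate 1. That share rested on miR-21, miR-31 and the arms of miR-202. The other names, miR-132, miR-212, miR-224 and miR-383, had 10, 2, 1 and 1 reads over all libraries. All 31 markers of 6 cell types together took 2.67% to 4.48% in LO and 2.07% to 3.31% in SO, and 3 of them (miR-214, miR-133b and miR-208b) had 0 reads in every library. The 5 blood cell markers took 0.199% in SO replicate 1, the library with the highest miR-128, and 0.00890% to 0.0645% in the others. In SO replicate 1 miR-142-3p led them at 41.8 RPM, against at most 6.50 RPM elsewhere, and miR-142-5p had 11.5 RPM. miR-451, miR-486 and miR-144 had 2.61, 0.522 and 1.04 RPM there, and each was higher in some LO library. The part of the blood cell markers in the miR-128 values was not tested. The lists hold no miRNA specific to oocytes, so the label of the cells was not checked from the oocyte's own markers. In such bulk libraries, fewer cells that hold a miRNA and less of it per cell cannot be told apart.

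miR-128 was among the most abundant miRNAs of every library. The LO libraries held 439, 332 and 1675 reads of it in replicates 1 to 3, which is 762, 719 and 1176 RPM. The SO libraries held 2808, 2249 and 2159 reads, which is 1466, 1172 and 987 RPM. LO replicates 1 and 2 were the lowest of the 6 libraries, while LO replicate 3 lay above SO replicates 2 and 3, so the groups overlapped. Listed miRNAs made up 1.68% of the library total in LO replicate 2, against 2.33% to 3.03% in the other libraries. The order of the libraries on listed reads, given below, therefore differs from this order in RPM. The LO mean was 886 ± 252 RPM and the SO mean 1208 ± 242 RPM (SD over 3 libraries), a ratio of SO to LO of 1.36. The difference, LO minus SO, was -322 RPM, beside SDs of 252 and 242 RPM within the groups.

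Counting error was small beside this spread. The exact Poisson 95% interval ran from 693 to 837 RPM in LO replicate 1, from 644 to 801 RPM in LO replicate 2 and from 1121 to 1234 RPM in LO replicate 3, the last apart from both others. In SO the intervals were 1412 to 1521, 1124 to 1221 and 946 to 1029 RPM, none touching another. The coefficient of variation between replicates was 28.5% in LO and 20.0% in SO, against counting errors of 1.89% to 5.49% per library. Reads are not known to be separate molecules, so these intervals cover counting error only. For miR-128 the spread between replicates was thus larger than the counting error in both groups.

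As a share of all listed miRNA reads, which removes the authors' library total, miR-128 took 2.51% in LO replicate 1 (95% exact Clopper-Pearson interval 2.29 to 2.76). It took 4.28% in LO replicate 2 (3.84 to 4.76) and 3.94% in LO replicate 3 (3.75 to 4.13). In SO it took 5.08% (4.90 to 5.27), 5.00% (4.80 to 5.21) and 4.24% (4.07 to 4.42) in replicates 1 to 3. About 1 listed read in 19.7 was miR-128 in SO replicate 1, against 1 in 39.8 in LO replicate 1. The mean share was 3.58% ± 0.937 for LO and 4.77% ± 0.466 for SO (SD over 3 libraries), with an overlap only between LO replicate 2 and SO replicate 3, whose intervals overlap too. LO replicate 1 had both the lowest share of miR-128 and the highest granulosa and cumulus marker share, and the part of those markers in this value was not tested. Without that library the LO mean was 4.11%, and the difference between the groups went from -1.20 to -0.666 percentage points.

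**Figure D1:**
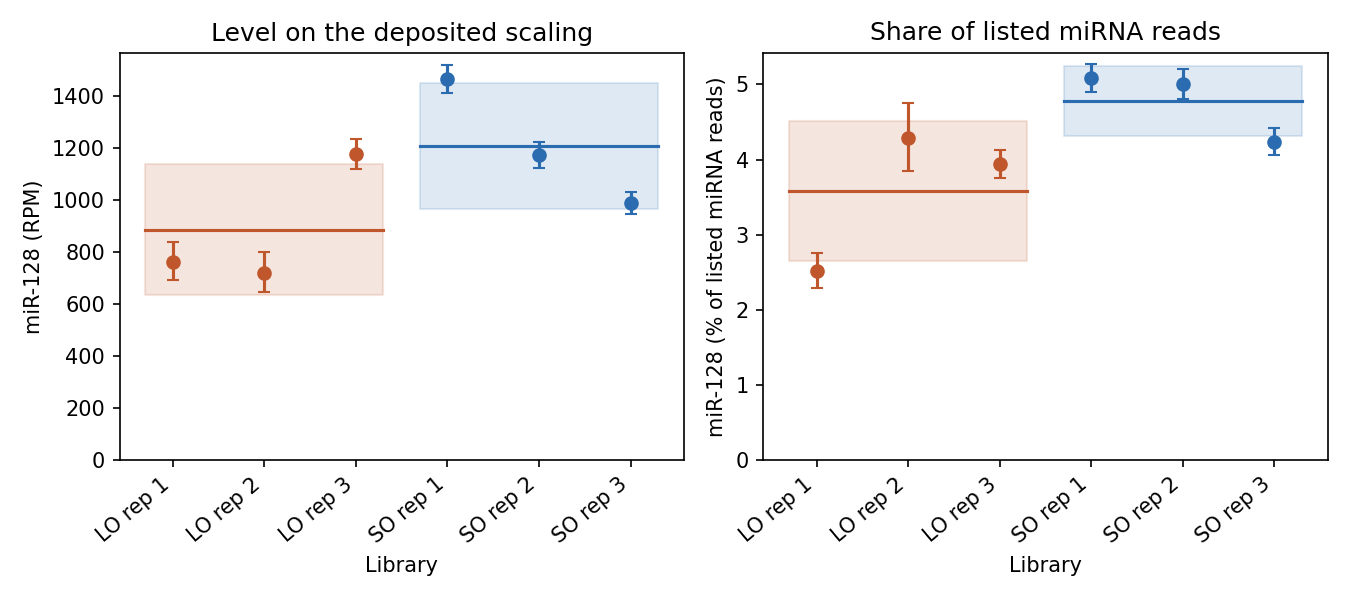
Level of miR-128 in each library, in RPM (left) and as a percentage of listed miRNA reads (right). Points are libraries with 95% counting intervals, lines are group means and bands are 1 SD over 3 libraries. On the left LO replicate 3 reaches into the SO range, and on the right LO replicate 1 stands lowest at 2.51%.

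miR-205, an epithelial miRNA, is the largest single part of that share's denominator. With miR-205 left out, the LO replicates 1 to 3 held 3.48%, 6.73% and 6.35% miR-128 among the remaining listed reads, and the SO replicates 8.03%, 8.06% and 7.46%. On this base every LO library lay below every SO library, with means of 5.52% ± 1.78 and 7.85% ± 0.341 (SD, n = 3 each). In RPM and among all listed reads the groups overlapped. How many other miRNAs have group ranges apart on this base was not counted, so the separation has no background here. The coefficient of variation was 4.34% in SO against 9.76% on the full base, and 32.2% in LO against 26.2%, so SO lay closer together and LO farther apart.

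By rank, miR-128 was number 4 in each SO library, number 8 in LO replicate 1 and number 5 in both other LO libraries. In all 3 SO libraries the names above it were miR-205, miR-16, a cell cycle regulator, and miR-148a-3p, which acts on DNA methyltransferase and lipid genes. In LO replicates 2 and 3 let-7a, of the differentiation-linked let-7 family, stood above it as well, by a factor of 1.08 and 1.03, which is within counting error. In LO replicate 1 it was passed by let-7a (1957 RPM), let-7f (1254 RPM), let-7c (1160 RPM) and miR-125b (842 RPM), the last a relative of the worm's lin-4 timing miRNA. The lead of miR-125b rested on 485 reads against 439 of miR-128, and no counting interval was computed for that ratio. miR-103, made from an intron of a pantothenate kinase gene, followed miR-128 there at 738 RPM, within the counting interval of miR-128.

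The order of the group means left several neighbours of miR-128 within their spread. In LO the mean of miR-128 was set off from that of let-7a by -428 RPM, from that of let-7f by 101 RPM and from that of miR-125b by 137 RPM, while the SD of the difference within libraries was 665, 519 and 189 RPM (n = 3). In SO the place of miR-128 was steadier. It exceeded let-7a by 285 ± 101 RPM, miR-30a-5p by 415 ± 168 RPM and miR-125b by 499 ± 202 RPM (SD of the difference, n = 3), and it was above each of them in 3 of 3 libraries. miR-148a-3p was above miR-128 in all 6 libraries, and miR-128 minus miR-148a-3p was -551 ± 80.1 RPM (LO) and -440 ± 311 RPM (SO).

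**Figure D2:**
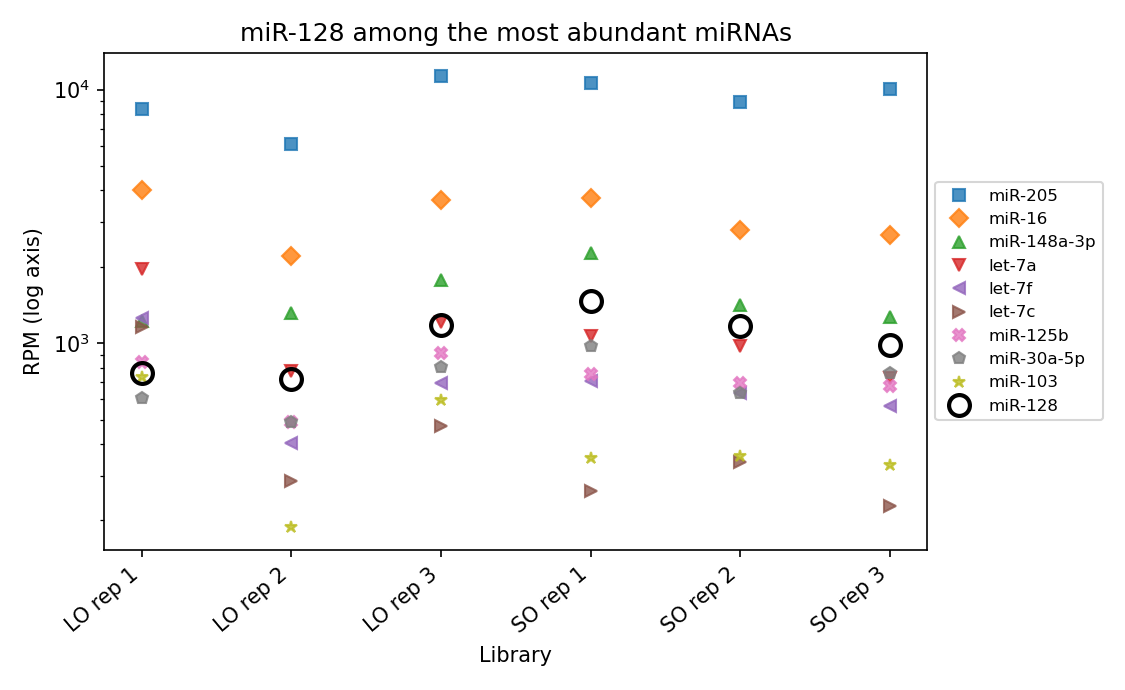
RPM on a log axis of the 10 miRNAs that stand above or within 2 places of miR-128 in some library, 1 column per library. The open circle of miR-128 is at rank 4 in each SO library and at rank 8 in LO replicate 1, where let-7a, let-7f, let-7c and miR-125b lie above it.

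Since a miRNA acts through its seed, names were also summed by identical seed. miR-128 forms a seed group of its own, whereas let-7a and its relatives make up a group of 8 with reads in each library. On that count miR-128 stood at place 8 in LO replicate 1, at place 5 in SO replicate 2 and at place 6 in the other 4 libraries. The let-7, miR-148 and miR-16 groups stood above it in every library. The miR-30 group, whose leading name miR-30a-5p lay below miR-128 in all 6 libraries, stood above it in all but SO replicate 2. There the miR-30 group had 1088 RPM and miR-128 had 1172 RPM.

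Ratios within a library do not depend on its depth or scaling. The ratio of miR-128 to let-7a was 0.390, 0.927 and 0.974 by LO replicate, against 1.37, 1.20 and 1.36 by SO replicate. The groups did not overlap. The 95% exact counting intervals lay above 1 in all SO libraries and below 1 in LO replicate 1, but reached across 1 in LO replicate 2 (0.796 to 1.08) and LO replicate 3 (0.910 to 1.04), so there the order of let-7a and miR-128 was not resolved. miR-128 to miR-16 was 0.189, 0.326 and 0.319 (LO) and 0.392, 0.420 and 0.370 (SO), again without overlap. Against let-7c the ratios were 0.657, 2.52 and 2.49 (LO) and 5.62, 3.45 and 4.33 (SO), also apart. The ratio to miR-205 ran from 0.0909 to 0.118 in LO and from 0.0982 to 0.139 in SO and overlapped, as did the ratios to miR-148a-3p (0.546 to 0.664 and 0.647 to 0.827), let-7f, miR-103, miR-125b and miR-30a-5p.

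Over the 99 other tested miRNAs with reads in every library, the ratio of miR-128 had group ranges apart for 26 (26.3%), each time lower in LO, and for 0 in the other direction. Over all 4950 pairs of the same miRNAs 16.6% had ranges apart in either direction. By the number of its ratios lower in LO, miR-128 shared place 10 of these miRNAs with miR-30d, and miR-9-1 led with 60. The leader had 106 reads over all libraries, and miR-9-2, a name with the same mature sequence, had 1 such ratio. Places in this order can thus differ widely between scarce names of the same sequence. As the rule used this contrast, these counts describe the libraries and carry no test.

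**Figure D3:**
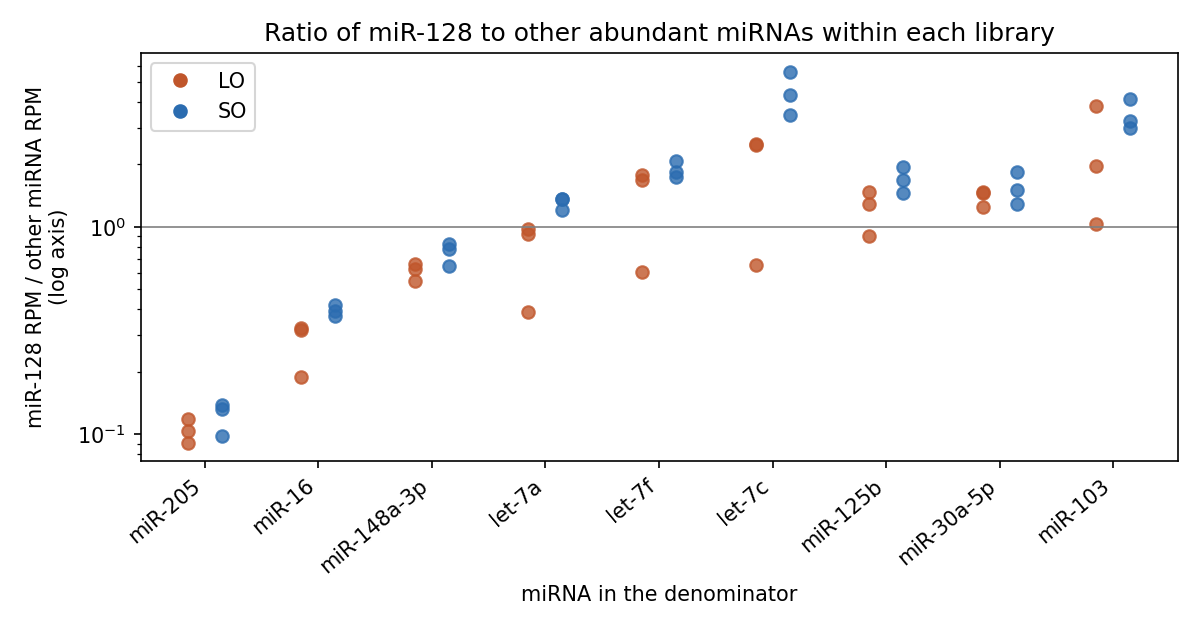
Ratio of miR-128 to 9 other abundant miRNAs in each library, on a log axis, with LO in orange and SO in blue. The LO and SO points do not overlap for miR-16, let-7a and let-7c, and for let-7a the SO points lie above the line at 1.

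The comparison of LO with SO across all miRNAs gives the frame for these values. It was run by limma, a linear model fitted to all features together, on log2(RPM + 1) of the 104 miRNAs with enough reads. At a false discovery rate (FDR) of 0.05 limma called 0 miRNAs (0%), with 4 at an unadjusted p under 0.05. On the recovered reads edgeR called 2 (1.92%) and DESeq2 called 0 of 242. miR-128 was in none of these call sets. Its log2 fold change was -0.46 (LO against SO, limma SE 0.39, set mainly by the trend over all miRNAs), lower in LO, and 11 of the 104 had a lower value. Over all tested miRNAs the median was 0.29 (72 above 0 and 32 below), so miR-128 stood at -0.76 relative to the median. With TMM scaling of the reads the median was 0.05, with 52.9% instead of 69.2% of miRNAs higher in LO. miR-128 was then at -0.71, and its distance from the median stayed at -0.76. Without LO replicate 1 the tally turned, with 47 miRNAs above 0, 57 below and a median of -0.06. Group ranges of RPM were apart for 4 of the 104 (3.85%), and miR-128 was not among them.

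Among the 10 abundant miRNAs set beside each other above, the log2 fold changes ran from -0.46 for miR-128 to 0.98 for let-7c. miR-30a-5p at -0.33, miR-205 at -0.23 and miR-148a-3p at -0.17 were the others with a lower mean in LO. let-7a was at 0.42, miR-103 at 0.33, let-7f at 0.16, miR-16 at 0.08 and miR-125b at 0.03. The limma SEs of these names were 0.29 to 0.44, and limma with all 6 libraries called none of the 10. Without LO replicate 1 the log2 fold change of miR-128 was -0.37 and its distance from the median was -0.31. Without LO replicate 2 these were -0.33 and -0.95, and limma then called 18 of the 104, among them let-7c (log2 fold change 1.44, FDR 0.000972) and miR-103 (0.93, FDR 0.0346) but not miR-128.

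**Figure D4:**
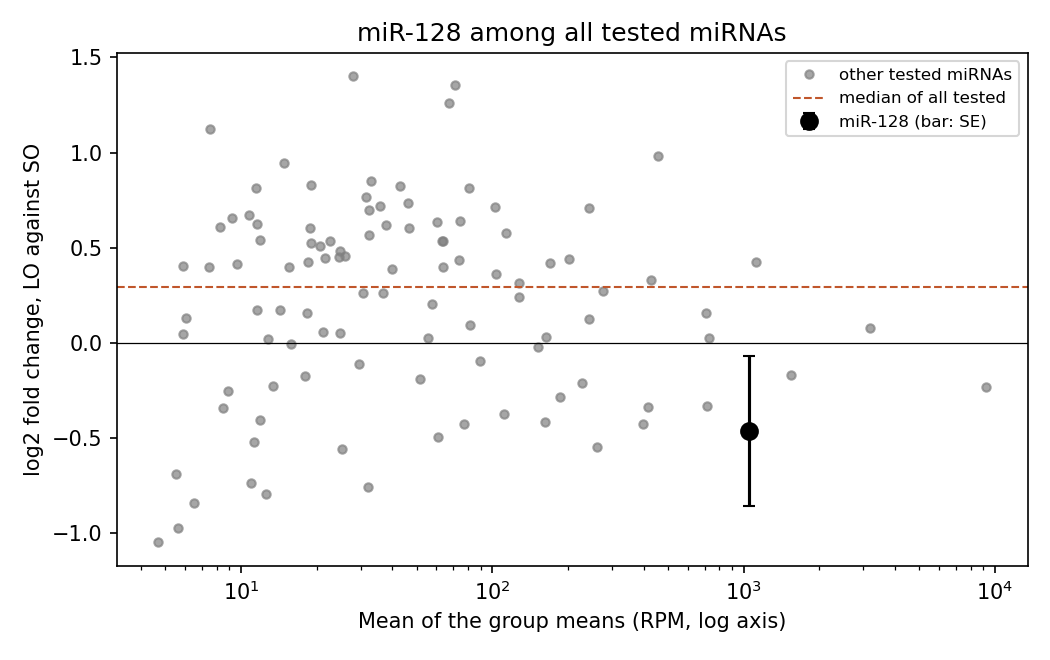
Log2 fold change of LO against SO for 104 tested miRNAs against their mean RPM (log axis). miR-128, in black with its limma SE (set mainly by the trend over all miRNAs), lies at -0.46, below the dashed median of 0.29.

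The miRNAs with an overlapping seed were scarcer. miR-27b-3p, a regulator of lipid metabolism and of vessel growth, had 210, 56.3 and 169 RPM by LO replicate and 143, 106 and 79.5 RPM by SO replicate. Its order over the libraries differed from that of miR-128, with its highest value in LO replicate 1. miR-128 was thus 3.63, 12.8 and 6.95 times as abundant as miR-27b-3p in LO replicates 1 to 3, and 11.2 ± 1.09 times in SO (SD over 3 libraries). The LO ratios were uneven and reached past the SO range at LO replicate 2, which rests on 26 reads of miR-27b-3p. The log2 fold change of miR-27b-3p was 0.24 (SE 0.51), and it was not called.

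miR-27a, which differs from miR-27b-3p near the 3′ end, had 38 reads over the 6 libraries and miR-139-5p had 22. Both were too scarce to test. Of all reads with the shared bases, counted over these 4 names in RPM, miR-128 made up 77.7% in LO replicate 1, the lowest, and between 87.1% and 92.2% in the other 5 libraries.

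Among 14 listed names of other miRNAs enriched in neurons, 13 had reads, 4 could be tested and 0 were called by limma, which called 0% of all tested miRNAs. miR-7, a neuroendocrine miRNA, was the most abundant of them at 160, 150 and 348 RPM by LO replicate and 371, 239 and 294 RPM by SO replicate. miR-128 had about 4 times its mean, with ratios of the group means of 4.05 in LO and 4.01 in SO. miR-138, known from dendritic spines, had means of 33.8 ± 11.9 RPM (LO) and 27.3 ± 5.61 RPM (SO), and miR-9-1 of 8.32 ± 3.81 and 13.7 ± 2.17 RPM (SD over 3 libraries). miR-9-2 (12.2 ± 2.79 and 14.7 ± 4.21 RPM) carries the same mature sequence as miR-9-1. miR-124a, the defining neuronal miRNA, had 2 reads in all 6 libraries together and miR-153 had 0. The median log2 fold change of the 4 was -0.39, beside 0.29 for all tested, and 3 of the 4 had a lower mean in LO. miR-9-1 (-0.74) and miR-9-2 (-0.23) enter as separate names, so this median and count hold their shared sequence more than once. miR-7 was at -0.55 and miR-138 at 0.26. miR-128 was abundant in libraries where miR-124a was at or near 0.

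Of 9 listed names with a known role in cholesterol transport, 8 had reads, 4 could be tested and 0 were called by limma, which called 0% of all tested miRNAs. miR-148a-3p led them and was above miR-128 throughout. miR-27b-3p followed, and miR-122, the main miRNA of liver, had means of 11.5 ± 7.72 RPM (LO) and 11.7 ± 9.47 RPM (SO). miR-185, a repressor of sterol regulatory genes, had a log2 fold change of -0.97 (SE 0.82) at 4.55 ± 4.25 and 6.72 ± 1.49 RPM, with 0 reads in LO replicate 2. The median log2 fold change of the 4 was 0.00046, with 2 on each side, beside 0.29 for all tested.

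The profile of miR-128 over the 6 libraries was compared with 80 tested miRNAs that averaged at least 10 RPM in both groups, by Pearson correlation of log2(RPM + 1). The median r was 0.11, and 51 of 80 were above 0. Scaled to listed miRNA reads, a setting chosen after seeing the data, the median r was -0.58 and 25 of 80 were above 0, so the level against which a likeness is read depends on the scaling. The points share their library total and fall into 2 groups, so r serves here only as a measure of likeness. miR-338, a miRNA of glia and neurons, was most alike (r = 0.98, Spearman rho = 0.94). It had 36.5, 39.0 and 77.9 RPM by LO replicate and 95.6, 65.1 and 51.2 RPM by SO replicate. The ratio of miR-128 to miR-338 stayed between 15.1 and 20.9 while miR-128 itself spanned a 2.04-fold range. As miR-338 was picked as the most alike of 80, a narrow ratio follows in part from the choice. A single read was worth 1.74 RPM in LO replicate 1 and 2.17 RPM in LO replicate 2. The counting error of miR-338 there is therefore larger than that of miR-128.

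miR-182, of the sensory miRNA cluster that also makes miR-183, came next (r = 0.96, rho = 0.94) and had 333, 323 and 459 RPM by LO replicate and 498, 447 and 448 RPM by SO replicate. miR-335, from an intron of the imprinted gene MEST, was next (r = 0.92, rho = 1) with all 6 libraries in the same order as miR-128. That order is not fully resolved by counting. The intervals of miR-128 overlap between LO replicates 1 and 2, and between LO replicate 3 and SO replicate 2. miR-7 (r = 0.91, rho = 0.94) and miR-183 (r = 0.89, rho = 0.89) followed. On listed reads r was 0.95 for miR-338, 0.90 for miR-182 and for miR-183, 0.85 for miR-7 and 0.83 for miR-335, all within the first 6 places. Without LO replicates 1 and 2, the libraries farthest from the median of miR-128, r was 0.96 for miR-338, 0.89 for miR-182 and for miR-335, 0.52 for miR-7 and 0.48 for miR-183. That leaves 4 libraries and a narrower range of miR-128. With each group's mean removed and all 6 libraries kept, r was 0.88 for miR-7 and 0.83 for miR-183. All 5 had negative log2 fold changes, from -0.55 for miR-7 to -0.34 for miR-182, with no call, beside 32 of all 104 tested miRNAs. They were picked by likeness to miR-128 over these same libraries, so their direction follows in part from the choice and carries no test.

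At the other end, miR-100, from a cluster that also holds let-7 and miR-125 members, had r = -0.89 (rho = -0.77), with 156, 141 and 88.5 RPM by LO replicate and 74.7, 62.5 and 92.8 RPM by SO replicate. Its highest values were in LO replicates 1 and 2, where miR-128 was lowest. miR-184, of lens and cornea, followed with r = -0.52 (rho = -0.20) and miR-29a, a repressor of collagens, with r = -0.40 (rho = 0.09). Without LO replicates 1 and 2 the r of miR-100 was -0.46, that of miR-184 0.22 and that of miR-29a 0.50. On listed reads it was -0.43 for miR-100, which then stood at place 35 of 80, -0.86 for miR-184 and -0.85 for miR-29a. The lowest r on that scale was that of miR-99a (-0.93, a name added after its value was seen), so which miRNAs were least like miR-128 depended on the scaling.

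**Figure D5:**
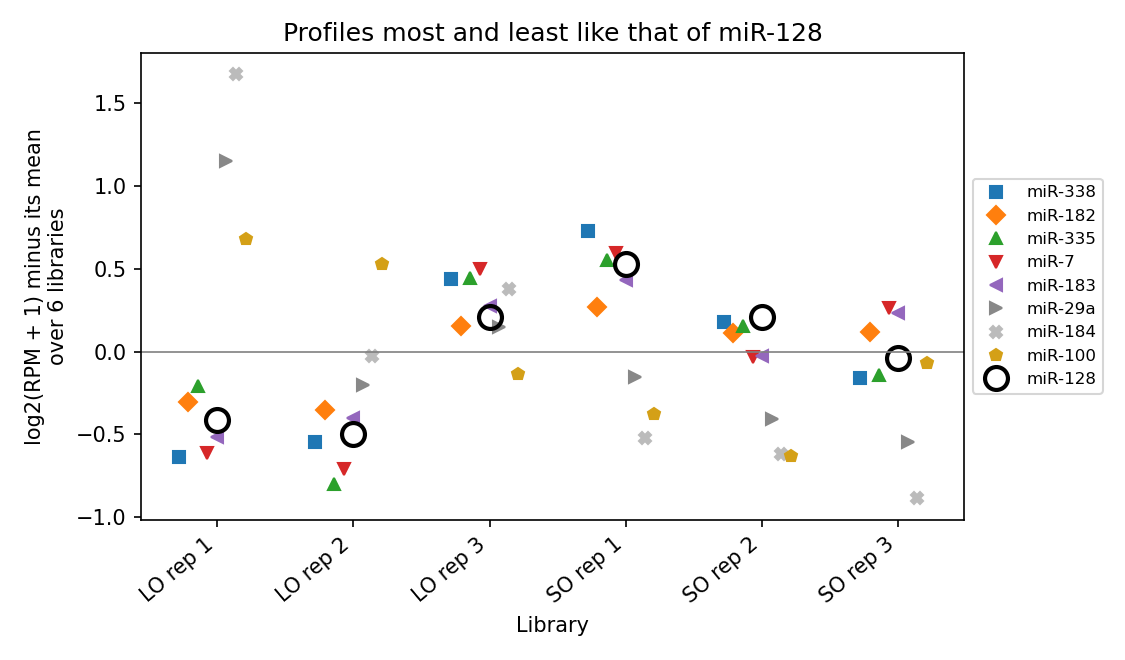
Log2(RPM + 1) of miR-128 (open circles), of the 5 miRNAs with the most similar profile and of the 3 with the least similar, each minus its own mean over 6 libraries. The 5 similar miRNAs follow miR-128 below 0 in LO replicates 1 and 2, where miR-100 is highest.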

How the data were processed

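RNA was isolated with mirVana and turned into libraries with the QIAGEN QIAseq miRNA kit, per the labels' protocols. Of the tools, Bowtie2 2.2.2, cutadapt, bcl2fastq and edgeR are named without a role, and Sscrofa10.2 is the build, per the submitters' processing notes. The deposited values are headed TPM in the file header, but each is a whole multiple of 1 step per library whatever the sequence length, so the deposited values were read as RPM. Divided by that step, 100% of the values above 0 were whole reads (tolerance 0.01 read). A count of 0 allows up to 1.37 to 6.50 RPM by library (3 reads). Whether molecular identifiers were used is not stated in these sources.

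Groups and replicate numbers came from the sample titles. limma 3.58.1 (R 4.3.3) with an intensity trend was fitted on log2(RPM + 1), which understates fold changes of low miRNAs. It used the 104 miRNAs passing edgeR's filterByExpr, without covariates, and p-values were adjusted by Benjamini-Hochberg. The SE follows the abundance trend, so that of miR-128 is not a measure of its own replicates, whose pooled SD within groups was 0.34 in log2(RPM + 1). edgeR 4.0.16 (quasi-likelihood, TMM) and DESeq2 1.42.0 on recovered reads were alternatives. The fits were run on simulated data with larger changes than that of miR-128 and the same spread for every miRNA. How well they find a change of its size in libraries as uneven as these was not tested. The names given were miR-128, those above or within 2 ranks of it, sharing seed bases, in the fixed lists, and the 5 most and 3 least alike. miR-128 and all lists were chosen with earlier results of these data known.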

Additional observations from a re-analysis of the deposited data

How the results depend on the processing

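The log2 fold change of miR-128 was below 0 in all 15 alternatives (scalings, pseudocounts of 0.5 and 5 RPM, no filter, edgeR, DESeq2, the replicate block and each library left out). It ran from -0.75 with DESeq2 size factors to -0.32 without SO replicate 1, and moved by less than the SD between replicates (0.34) each time. The replicate block and the missing filter leave it at -0.46 by design, and either pseudocount could hardly move it at this abundance (-0.46 with each). As the rule used this contrast, the tally carries no test. The number of miRNAs called was 2 with edgeR and 0 in limma and in the other alternatives, except without LO replicate 2. Over the fits leaving out 1 library it ran from 0 to 18, and the cause was not tested. With miR-205 out of the denominator the share of miR-128 was 5.52% in LO and 7.85% in SO, a difference of -2.33 percentage points, as fewer reads are in the base. With the replicate number as a block the log2 fold change was -0.46 and 0 miRNAs were called. Same-numbered libraries did not deviate together (r = -0.34, -0.22 and 0.08 for numbers 1 to 3), so the numbers were not taken as pairs. Merging names of identical sequence left the median rank at 5 in LO and 4 in SO. On listed miRNA reads, an alternative chosen after seeing the data, the r with miR-128 moved by less than 0.1 for miR-338, miR-182, miR-335, miR-7 and miR-183, and went to -0.43 for miR-100, -0.86 for miR-184 and -0.85 for miR-29a. Depth limits the scarce relatives miR-27a and miR-139-5p, and 3 libraries a group limit miR-128.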
